A study of Mus musculus with 6 samples.

Results

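Cells that die expose phosphatidylserine, and the 9 genes described here encode proteins linked to its recognition or to the uptake of dead cells. Timd4, Havcr1, Stab1, Cd300lf and Cd93 encode receptors and receptor-like proteins. Mfge8 encodes a secreted bridge, and Itgav, Itgb5 and Itgb3 encode integrin subunits. These 9 genes were chosen by name from the 32287 features of the gene matrix, with earlier results of these data known. All 9 passed the filter on low counts. None of them was used to gate a cell type.

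RNA, surface antibody tags and hashtags were read from the same single cells (CITE-seq) of inguinal lymph nodes, sorted as CD11b high and TOM+. All mice were CD169Tom reporters (Cd169Cre/+ Tdtomato fl/fl), in which Cre made from the Siglec1 (CD169) locus marks any cell that has turned the gene on, together with its progeny, so a TOM+ cell need not carry CD169 at the time of the sort. Of the 4 mice, 2 were unimmunized and 2 were taken at day 9 after immunization with hen egg lysozyme. The study's methods describe lysozyme joined to an ovalbumin peptide, given in an adjuvant to recipients of transferred B and T cells. The parts of such an immunization cannot be told apart here. Each mouse had its own hashtag, and the pooled cells were split over 2 captures, so the mouse is the replicate and the captures are not.

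The gene matrix held 18662 barcodes, and 12139 cells were kept and assigned to 1 mouse. There were 2828 and 537 cells in unimmunized mice 1 and 2 and 4052 and 4722 in immunized mice 1 and 2, with median depths of 5877, 6280, 9674 and 12727.5 unique molecular identifiers (UMIs, the counted molecules). Of the barcode sequences, 621 occurred in both captures and were dropped. Marker gates put 6800 cells into 15 types, 4070 cells passed no gate, and 1269 passed more than 1 gate and were left out of the types as possible doublets. Levels are given as CPM (UMIs of the gene scaled to the total of all UMIs) in the summed cells of a type and mouse, called a library below. They compare 1 gene between cells and not 1 gene with another.

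Phagocytes bind phosphatidylserine either directly, through receptors such as TIM-4, or through soluble bridges such as MFG-E8, which joins the lipid to the αv integrins. TIM-4 mainly tethers the corpse, while the integrins and the TAM receptor kinases signal for its engulfment. In lymph nodes, tingible body macrophages (TBMs) clear dying B cells in germinal centers, and medullary sinus macrophages (MSMs) line the lymph sinuses. The TBM-like name below stands for cells with RNA of at least 3 of 7 markers: Pf4, Itga9, Ccl12, C3ar1, Ccl7, Ms4a7 and Tmem37. The place of the sorted cells in the node was not measured, so TBM-like cells need not be germinal center TBMs.

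Promoter sequence is shown for 4 of the genes, because they differed in the cells with high levels: MSM-like cells for Timd4, migratory dendritic cell (DC)-like cells for Mfge8, TBM-like cells for Itgb5, and TBM-like and inflammatory macrophage-like cells alike for Stab1. The RefSeq table (GRCm38.p6) had an entry for 7 of the 9 genes. Each line gives the 250 bases before the start, 5′ to 3′ on the strand of the gene, and capitals mark matches on either strand to a CCAAT box (CCAAT), a GC box (GGGCGG) or the core of a PU.1 motif (GAGGAA). The windows are chr11:46810549-46810798 on the plus strand for Timd4, chr7:79149061-79149310 on the minus strand for Mfge8, chr14:31168642-31168891 on the minus strand for Stab1 and chr16:33829415-33829664 on the plus strand for Itgb5.
Timd4: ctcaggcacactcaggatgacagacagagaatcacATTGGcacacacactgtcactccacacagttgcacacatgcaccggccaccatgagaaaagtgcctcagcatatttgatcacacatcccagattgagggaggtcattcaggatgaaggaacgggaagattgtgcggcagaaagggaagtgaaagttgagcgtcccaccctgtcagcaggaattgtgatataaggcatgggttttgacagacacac
Mfge8: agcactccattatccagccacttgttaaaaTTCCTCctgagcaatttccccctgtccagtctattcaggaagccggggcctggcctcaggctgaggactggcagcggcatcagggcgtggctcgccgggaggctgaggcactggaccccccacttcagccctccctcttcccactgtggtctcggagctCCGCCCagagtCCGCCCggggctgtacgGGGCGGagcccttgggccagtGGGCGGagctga
Stab1: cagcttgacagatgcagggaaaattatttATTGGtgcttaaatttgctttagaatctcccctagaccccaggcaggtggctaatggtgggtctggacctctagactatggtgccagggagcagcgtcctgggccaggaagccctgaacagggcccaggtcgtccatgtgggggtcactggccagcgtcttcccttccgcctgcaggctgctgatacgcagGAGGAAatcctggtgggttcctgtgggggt
Itgb5: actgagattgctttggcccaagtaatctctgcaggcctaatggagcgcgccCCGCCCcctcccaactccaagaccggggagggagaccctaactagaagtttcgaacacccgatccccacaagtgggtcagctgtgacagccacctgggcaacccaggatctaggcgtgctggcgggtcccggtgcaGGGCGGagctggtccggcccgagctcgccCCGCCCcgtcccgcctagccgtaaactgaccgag
A CCAAT box was present in Timd4 and Stab1, a GC box in Mfge8 and Itgb5, and the PU.1 core in Mfge8 and Stab1. Over 32851 promoters of the same length, 33.8% held a CCAAT box, 32.7% a GC box and 23.3% the PU.1 core. The PU.1 core was found in 5 of the 7 genes in all. Havcr1 had several windows and is counted for a match in a single one, while the percentages are over single windows. Stab1 and Itgb5 had no motif in common among those searched. A TATA box (TATAAA, in 12.4% of promoters) was found in Cd300lf alone of the 7, and an E-box (CACGTG, in 6.02%) in none.

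**Figure D1:**
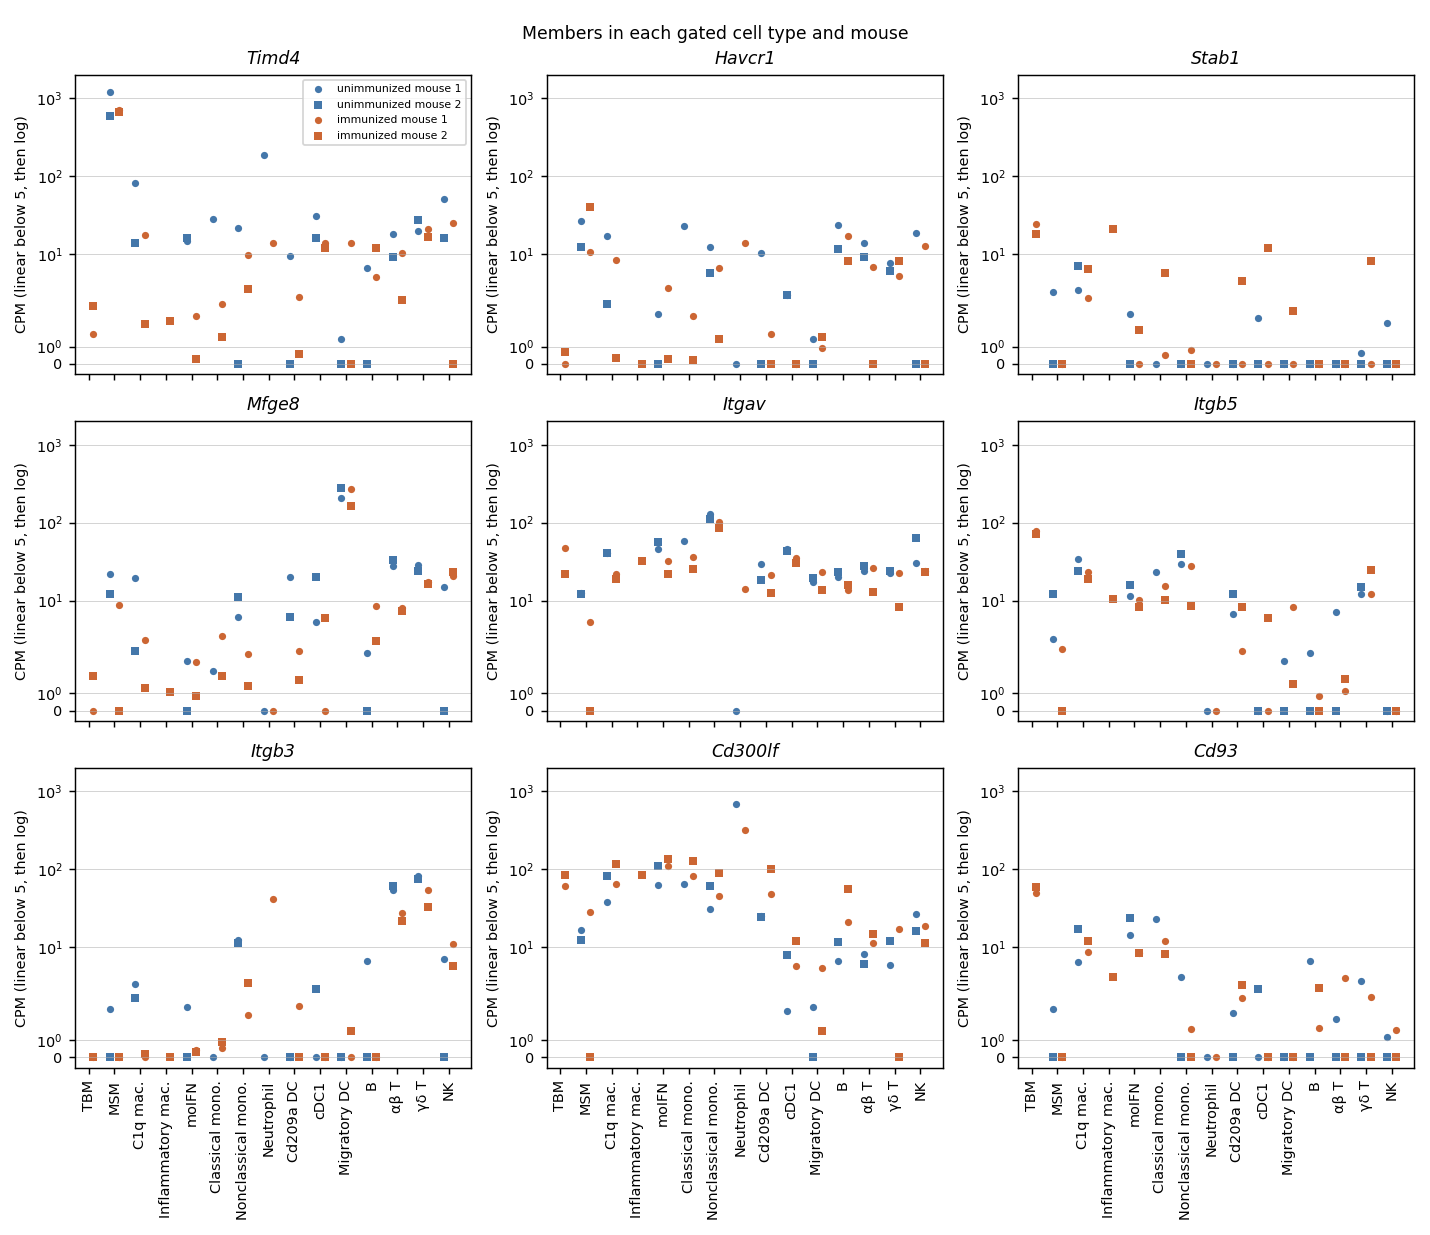
CPM of each gene in each gated cell type, with 1 point per mouse that had a library of the type (blue, unimmunized; orange, immunized; circles, mouse 1; squares, mouse 2). The axis is linear below 5 CPM and logarithmic above. Timd4 stood at 590 to 1207 CPM in MSM-like cells and Mfge8 at 163 to 279 CPM in migratory DC-like cells, while TBM-like cells held the highest Cd93 and Itgb5.

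Timd4 encodes TIM-4, a tethering receptor for phosphatidylserine (GRCm38, chr11:46810800-46844332, plus strand). It was at 1207 and 590 CPM in MSM-like cells of unimmunized mice 1 and 2 and at 708 and 659 CPM in those of immunized mice 1 and 2. No other type reached this range. Neutrophil-like cells were next by their mean, from 5 UMIs, and C1q macrophage-like cells had 81.0, 13.8, 17.6 and 2.31 CPM in the same order of mice. From there down all neighbours in the order of types overlapped. TBM-like cells were near the bottom, with 1 and 5 UMIs in the immunized mice (1.74 and 3.32 CPM).
The MSM-like cells were shallow, with a median of 2060 UMIs and, in 1 mouse, 0.171 of the median of all its cells. Even so, 79.0% of them held a Timd4 UMI, against 4.03% of B cell-like cells, which had a median of 4263 UMIs. The share was 10.9% in γδ T cell-like and 6.37% in αβ T cell-like cells. Among all other types it was highest in cDC1-like cells, at 20.2%. With every cell thinned to 1000 UMIs, the shares in MSM-like cells were 70.9, 42.9, 52.0 and 33.3%, and in B cell-like cells 1.35, 0, 0.676 and 0%. The exact 95% binomial interval was 65.3 to 76.0% in unimmunized mouse 1 and 11.8 to 61.6% in immunized mouse 2, which had 15 MSM-like cells. These intervals cover counting error only.
Timd4 also varied with depth within the MSM-like cells. Cells under 2000 UMIs had 1723, 1165, 1526 and 1048 CPM in the 4 mice, and deeper cells 913, 445, 621 and 567 CPM. The shallow cells were higher in each of the 4 mice, and the part of depth in the level was not tested. The 7 MSM markers summed to 3463 to 5103 CPM in MSM-like cells and to at most 490 CPM in any library of another type. The CD169 antibody tag did not single out these cells: its mean centred log ratio was 0.445 ± 0.376 (SD, n = 4) on MSM-like cells, 1.45 ± 0.194 (n = 4) on γδ T cell-like cells and -0.687 ± 0.0274 (n = 2) on TBM-like cells.

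Havcr1 encodes TIM-1, a relative of TIM-4 that also binds phosphatidylserine (chr11:46735080-46779578, plus strand). It lies on the same strand as Timd4 and ends 31221 bases before it. Havcr1 was at 26.2, 12.3, 10.6 and 39.9 CPM in MSM-like cells, from 28 UMIs in all, and at 23.2, 11.6, 16.8 and 8.0 CPM in B cell-like cells, from 30 UMIs. The ranges of these types overlapped, as did those of every pair of neighbours in the order, so no type stood apart. Cells of no gate held 49.0, 70.6, 54.1 and 76.6% of its UMIs in the 4 mice.
Cells with Havcr1 often held Timd4 as well. In MSM-like cells, 22 of the 25 cells with a Havcr1 UMI held a Timd4 UMI, and 387 of all 490 did. In C1q macrophage-like cells, 18 of 32 cells with Havcr1 held Timd4, while 74 of all 1674 did. Depth differs between cells, and its part in these counts was not tested.

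Stab1 encodes stabilin-1, a scavenger receptor of macrophages and sinus endothelium that binds phosphatidylserine (chr14:31139013-31168641, minus strand). It was at 24.3 and 17.9 CPM in the TBM-like libraries, immunized mice 1 and 2, from 14 and 27 UMIs. Inflammatory macrophage-like cells, which had a library in immunized mouse 2 only, were at 20.9 CPM, within the range of the TBM-like libraries and above that of the same mouse. C1q macrophage-like cells followed at 4.26, 6.89, 3.81 and 6.40 CPM, below and apart from both. B cell-like, αβ T cell-like and neutrophil-like cells held no Stab1 UMI, and MSM-like cells held 3, all in unimmunized mouse 1. For MSM-like cells the limit that a count of 0 allows (3 UMIs) was 36.8, 5.32 and 59.9 CPM in the other 3 mice, so a level like that of TBM-like cells was not detectable in 2 of them. The 6 endothelial markers summed to 10.8 CPM in TBM-like cells, 11.3 CPM in inflammatory macrophage-like cells and 94.0 CPM in B cell-like cells, where Stab1 was at 0.

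Cd93 encodes a transmembrane protein of monocytes and endothelium that has been linked to the removal of dead cells (chr2:148436640-148443563, minus strand). It was at 50.4 and 59.8 CPM in the 2 TBM-like libraries. Classical monocyte-like cells had 23.0 CPM in unimmunized mouse 1 and 12 and 8.10 CPM in the immunized mice, and C1q macrophage-like cells had 6.39 to 17.2 CPM. The TBM-like values lay above all of these, and the next 3 types overlapped one another in turn. Migratory DC-like and neutrophil-like cells held no Cd93 UMI. After thinning, 4.17 and 6.93% of TBM-like cells held a UMI (unthinned 33.3 and 39.6%), and no thinned B cell-like cell did. The thinned share reached 1.54% in γδ T cell-like and 1.53% in αβ T cell-like cells, both in immunized mouse 1.

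Cd300lf encodes an inhibitory receptor of myeloid cells that binds phosphatidylserine (chr11:115116214-115133992, minus strand). Neutrophil-like cells had the highest values, 697 and 321 CPM, but from 38 UMIs. moIFN-like cells, gated on interferon-induced genes, had 63.3, 111, 111 and 134 CPM, and C1q macrophage-like cells 38.4, 82.7, 64.5 and 116 CPM. From moIFN-like cells down to the lowest type all neighbours overlapped, TBM-like cells among them at 60.8 and 85.7 CPM. MSM-like cells, at 16.5, 12.3, 28.4 and 0 CPM, had a mean of 14.3 CPM against 23.8 CPM in B cell-like cells, and the ranges overlapped. Migratory DC-like cells were lowest, at 2.88, 0, 5.43 and 1.54 CPM.

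Mfge8 encodes the bridge between phosphatidylserine and αv integrins, known from follicular dendritic cells and some phagocytes (chr7:79133768-79149060, minus strand). Migratory DC-like cells, gated on genes of DCs that leave tissue, had 206, 279, 273 and 163 CPM. γδ T cell-like cells came next at 29.0, 24.0, 17.4 and 16.3 CPM, far below and apart. TBM-like cells held 3 UMIs, all in immunized mouse 2 (1.99 CPM). In migratory DC-like cells 47.4% of cells held a UMI at a median of 9619 UMIs. The share was 3.66% in B cell-like, 8.67% in αβ T cell-like and 15.1% in γδ T cell-like cells. Thinned, the shares in migratory DC-like cells were 9.38, 9.09, 20.7 and 10.9%, and no thinned B cell-like cell held one. They were 3.11, 5.77, 3.08 and 0% in γδ T cell-like cells and 0.99, 3.64, 0.763 and 1.32% in αβ T cell-like cells.
Cells of no gate held 60.8, 28.4, 19.9 and 40.0% of all Mfge8 UMIs in the 4 mice. Among these, 26 cells held 3 or more Mfge8 UMIs, up to 103 in 1 cell, and 722 UMIs together, of which 586 came from unimmunized mouse 1, 52 from immunized mouse 1 and 84 from immunized mouse 2. Unimmunized mouse 2 had no such cell. They were picked by Mfge8 after its values were seen, so their other genes are given as a description. The 8 markers of follicular dendritic and stromal cells summed to 8092 CPM in them and to 31.5 CPM in the other cells of no gate, and Cxcl13, the chemokine of B cell follicles, was at 3683 and 13 CPM. The mice differed: the marker sum was 16956 CPM in the 13 cells of unimmunized mouse 1, 3518 CPM in the 4 cells of immunized mouse 2 and 236 CPM in the 9 cells of immunized mouse 1. In migratory DC-like cells these markers summed to 19.5 CPM, within the 6.97 to 74.2 CPM of the 15 types.

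Itgav encodes the αv chain, the shared partner of β3 and β5 (chr2:83724397-83806916, plus strand). It was detected in all 15 types. Nonclassical monocyte-like cells were highest, at 128, 112, 102 and 84.6 CPM, apart from the classical monocyte-like cells at 25.4 to 57.4 CPM. From there down to B cell-like cells all neighbours overlapped. TBM-like cells had 46.9 and 21.9 CPM, and MSM-like cells 12.4, 12.3, 5.32 and 0 CPM.

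Itgb5 encodes the β5 chain (chr16:33829665-33949338, plus strand). It was at 78.2 and 71.8 CPM in TBM-like cells, apart from every other type. Nonclassical monocyte-like cells had 29.3, 39.2, 27.7 and 8.61 CPM and C1q macrophage-like cells 34.1, 24.1, 23.1 and 19.0 CPM, which overlapped. NK cell-like and neutrophil-like cells held no Itgb5 UMI. Of 156 TBM-like cells, 82 held Itgb5, 48 held Itgav and 20 held both.

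Itgb3 encodes the β3 chain, best known from platelets (chr11:104608000-104670476, plus strand). It was highest in T cells. γδ T cell-like cells had 82.9, 75.0, 54.0 and 32.7 CPM and αβ T cell-like cells 53.7, 61.0, 27.3 and 22 CPM, and these ranges overlapped. TBM-like cells held no Itgb3 UMI, which allows up to 5.21 and 1.99 CPM in the 2 libraries. The 5 platelet markers summed to 2.20 CPM in γδ T cell-like cells and to 0 in αβ T cell-like cells. Of 615 γδ T cell-like cells, 245 held Itgb3, 85 held Itgav and 32 held both.

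The cell types were then compared in 8 pairs, with edgeR's quasi-likelihood test on the UMI counts summed per mouse and type, and Benjamini-Hochberg adjustment over 10903 genes. A gene was called at an adjusted p under 0.05. Of 72 pairs of gene and comparison, 25 were called, against 13.1% of the pairs over all genes. At least 1 call was made for 7 of the 9 genes and for 53.8% of all genes. The other 2, Havcr1 and Itgb3, were not called in any. The 9 genes were chosen with earlier results of these data known, so these counts are a description only. TBM-like libraries came from the 2 immunized mice alone, so comparisons with these cells used the immunized mice. When each cell was instead given to the type with the highest share of its markers, none of the calls in these comparisons was kept. Nearly all other genes lost their calls too. Over all genes the calls went from 1620 to 5 against MSM-like and from 44 to 0 against C1q macrophage-like cells. They went from 619 to 17 against inflammatory macrophage-like and from 537 to 26 against classical monocyte-like cells.

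**Figure D2:**
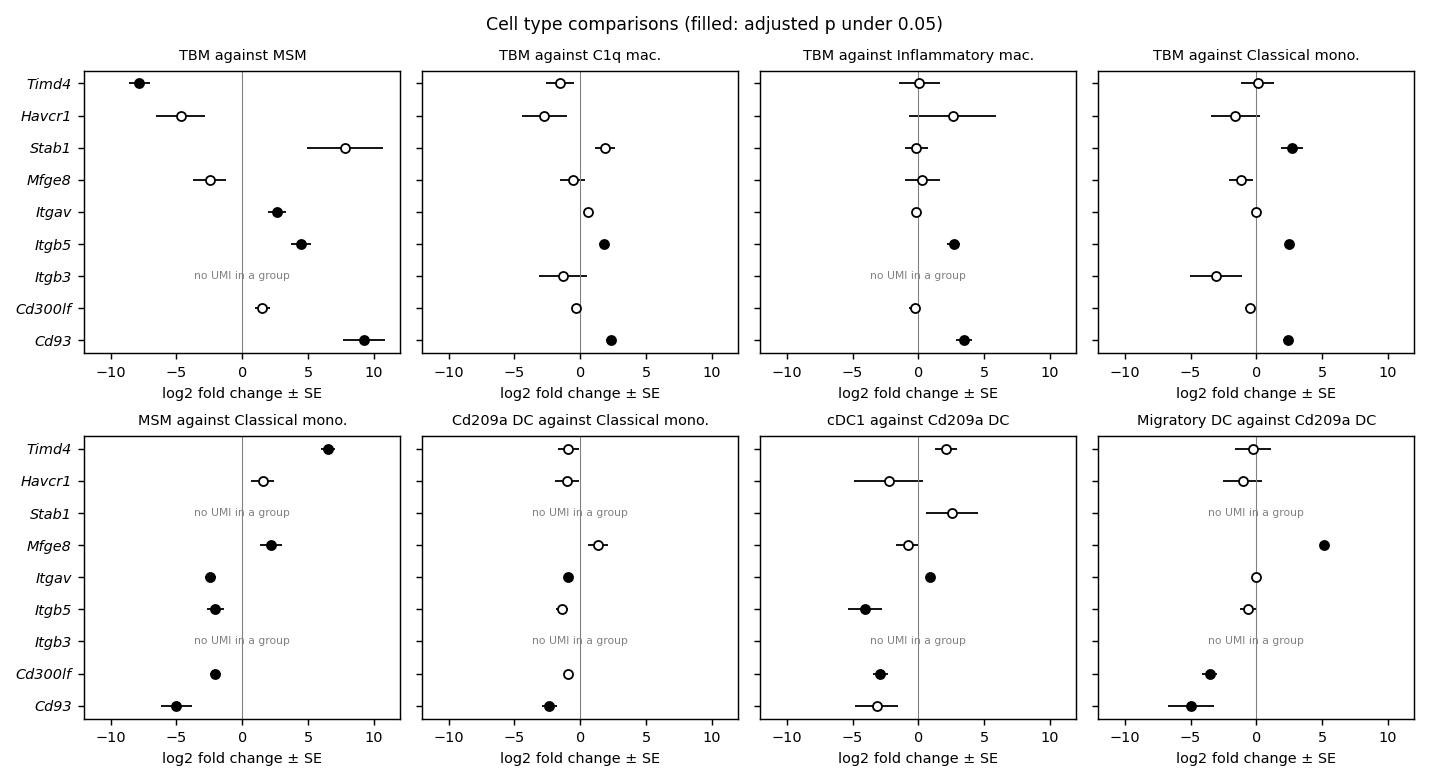
Log2 fold change of the first type over the second, with its standard error as a line, for the 9 genes in 8 comparisons. Filled points had an adjusted p under 0.05, and no point is drawn where the standard error was very large, as with some groups without UMIs. Where a type held no UMI and a point is drawn, as for Cd93 against MSM-like cells, its place is not a measured fold. Cd93 and Itgb5 were filled and to the right in all 4 panels with TBM-like cells, while Timd4 was at -7.83 against MSM-like cells.

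TBM-like and MSM-like cells differed in 4 of the genes, where 14.9% of all genes were called. Timd4 was lower in TBM-like cells by a log2 change of -7.83 ± 0.79 (SE; adjusted p = 3.21e-09, edgeR), at 2.53 ± 1.12 against 683 ± 34.7 CPM (SD, n = 2 and 2). Itgb5 was higher by 4.42 ± 0.76 (75.0 ± 4.53 against 1.77 ± 2.51 CPM) and Itgav by 2.60 ± 0.68 (34.4 ± 17.7 against 2.66 ± 3.76 CPM). The MSM-like side of these rests on 2 and 3 UMIs. Cd93 had no UMI in MSM-like cells of the immunized mice and was at least 11.7-fold higher in TBM-like cells, with 3 UMIs over the group as the floor. Without immunized mouse 1, each type had 1 library, which was assumed to vary like the other groups, and the genes called went from 1620 to 208. The calls of Cd93 (9.24 ± 3.69), Itgb5 (9.5 ± 3.32) and Itgav (7.80 ± 4.54) were then lost (adjusted p = 0.223, 0.122 and 0.477, edgeR), and that of Timd4 was not.

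Against C1q macrophage-like cells, 0.404% of genes were called, and Cd93 and Itgb5 were among them. Cd93 was at 55.1 ± 6.67 against 10.4 ± 2.57 CPM (log2 2.33 ± 0.40, adjusted p = 0.000916, edgeR), and Itgb5 at 75.0 ± 4.53 against 21.0 ± 2.93 CPM (log2 1.77 ± 0.33, adjusted p = 0.00285, edgeR). The mice did not overlap in either. DESeq2 called neither (2.43 and 1.86, adjusted p = 0.429 and 0.547). Capture 2 alone lost both calls (adjusted p = 0.0927 and 0.318, edgeR), and assignment by HTODemux lost that of Itgb5 (0.324). With the mouse as a replicate block, the genes called went from 44 to 121, with the same 2 members among them.

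Cd93 and Itgb5 were also higher in TBM-like than in inflammatory macrophage-like cells (5.68% of genes called), by 3.45 ± 0.61 and 2.68 ± 0.48. Stab1 differed there by -0.15 ± 0.87. A single library stands for the inflammatory macrophage-like cells, and it was assumed to vary like the others.

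Against classical monocyte-like cells (4.93% called), Cd93 was higher in TBM-like cells by 2.40 ± 0.41, Itgb5 by 2.49 ± 0.35 and Stab1 by 2.71 ± 0.81 (21.1 ± 4.51 against 3.11 ± 3.66 CPM, adjusted p = 0.0435, edgeR). The call of Stab1 was lost in 8 of 15 alternatives, and its sign turned in 1 of them, at -5.50 ± 9.44. With the mouse as a replicate block, 862 genes were called in place of 537, with the same 3 members.

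MSM-like cells were set against classical monocyte-like cells (24.0% called). Timd4 was higher by 6.50 ± 0.56 (791 ± 282 against 10.8 ± 14.5 CPM, n = 4 and 3, adjusted p = 1.15e-11, edgeR), and was called in each of 18 alternatives. Mfge8 was higher by 2.20 ± 0.83 (adjusted p = 0.049, edgeR), but the mice overlapped and 12 of 18 alternatives lost the call. Itgav (-2.43 ± 0.43), Cd300lf (-2.04 ± 0.44), Itgb5 (-2.07 ± 0.65) and Cd93 (-5.01 ± 1.16, from 2 UMIs in MSM-like cells) were lower in MSM-like cells. The mice overlapped for Itgb5, which lost its call in 7 of 18 alternatives, and Cd93 lost its call in 3.

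Among DCs, 2 of the genes were lower in Cd209a DC-like than in classical monocyte-like cells, against 8.29% of genes called. Cd93 was at 2.53 ± 1.82 against 14.4 ± 7.71 CPM (log2 -2.36 ± 0.55) and Itgav at 20.4 ± 7.10 against 39.5 ± 16.3 CPM (-0.93 ± 0.27). The mice overlapped for Itgav, and 10 of 18 alternatives lost its call. With the mouse as a replicate block, Cd300lf (-0.98 ± 0.26) and Itgb5 (-1.38 ± 0.43) were called too.
Between cDC1-like cells, the cross-presenting DCs, and Cd209a DC-like cells (14.3% called), Itgav was higher by 0.91 ± 0.29, while Cd300lf (-2.88 ± 0.55) and Itgb5 (-4.05 ± 1.26, from 1 UMI in cDC1-like cells, with overlap between the mice) were lower. The call of Itgav was lost in 10 of 18 alternatives and that of Itgb5 in 7 of 17. The replicate block added Timd4 (2.09 ± 0.59). Without unimmunized mouse 1, which left 1 unimmunized mouse, the member calls of both comparisons were lost, and calls over all genes became fewer as well. Against classical monocyte-like cells, Cd93 was then at -1.42 ± 0.47 and Itgav at -0.82 ± 0.32 in Cd209a DC-like cells. Between cDC1-like and Cd209a DC-like cells, Itgav was at 1.20 ± 0.53, Cd300lf at -2.35 ± 1.0 and Itgb5 at -4.43 ± 2.16.
Migratory DC-like cells differed from Cd209a DC-like cells in 3 of the genes, where 32.5% were called. Mfge8 was higher by 5.15 ± 0.33 (230 ± 55.9 against 7.89 ± 8.44 CPM, n = 4 and 4, adjusted p = 1.94e-16, edgeR) and was called in each of 18 alternatives. Cd300lf was lower by a log2 change of -3.55 ± 0.57, a call lost without unimmunized mouse 1 (adjusted p = 0.0546, edgeR). Cd93 had no UMI in migratory DC-like cells and 18 in the others, which is at least 2.86-fold lower against a floor of 3 UMIs over the group. That call was lost in 7 of 17 alternatives.

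Other genes of the pathway are given by list, beside a median log2 change over all genes of 0.00 for TBM-like against classical monocyte-like cells. Of 4 TAM receptors and ligands tested, 3 were higher in TBM-like cells and none lower, with a median of 2.98. Mertk, an engulfment receptor kinase, was at 66.6 and 4.34 CPM (log2 3.87 ± 0.57) and Axl at 192 and 42.2 CPM (2.10 ± 0.37). Against C1q macrophage-like cells none of these 4 was called, and neither was any of the other 37 genes in the 3 remaining lists.
Of 11 other phosphatidylserine receptors and relatives, 6 were higher in TBM-like than in MSM-like cells and 1 lower (median 1.83, all genes 0.05). Cd300a, an inhibitory relative of Cd300lf, was at 273 and 68.1 CPM, and the lower gene was Stab2, a relative of Stab1, at 0.665 and 7.10 CPM. The Stab2 values are near the floor, as 3 UMIs are 5.32 and 59.9 CPM in the MSM-like libraries of immunized mice 1 and 2. Stab2 is also among the 6 endothelial markers, which summed to 66.7 CPM in MSM-like cells. In migratory DC-like against Cd209a DC-like cells, 6 were lower and none higher (median -3.64, all genes -0.09), with Cd300a at 6.25 and 192 CPM.
Of 12 other integrin subunits and bridging factors, 7 were lower in MSM-like than in classical monocyte-like cells and none higher, where 24.0% of all genes were called (median -1.54, all genes 0.00). Among them was Itga4 at 58.5 and 236 CPM. In migratory DC-like against Cd209a DC-like cells 4 were higher and 6 lower. Itgb8, which pairs with αv, was at 73.8 CPM in migratory DC-like cells and without a UMI in the others. Of 14 genes of the engulfment machinery, 1 was higher and 1 lower in TBM-like than in classical monocyte-like cells (median -0.09): Abca1, a lipid exporter, at 110 and 21.1 CPM and Abca7 at 18.5 and 47.9 CPM.

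Immunization was compared within the 11 types that had libraries of all 4 mice, and as their mean. TBM-like, inflammatory macrophage-like, classical monocyte-like and neutrophil-like cells lacked a library in at least 1 mouse. As a mean over types, 2 of the genes were called, against 8.23% of all genes. Cd300lf was higher in the immunized mice by 0.91 ± 0.25 (log2, SE; adjusted p = 0.0146, edgeR), with a positive change in 10 of 11 types, as 6.83% of all genes had in 10 or more. Itgav was lower by a log2 change of -0.45 ± 0.15 (adjusted p = 0.0497, edgeR), with a negative change in 10 of 11, as 2.73% of all genes had in 10 or more.
Both calls rest on few mice. The fit took libraries of the same mouse as independent, so the errors and p-values of these means do not measure the spread between mice. Without immunized mouse 1, Cd300lf was at -0.34 ± 0.94, and without unimmunized mouse 1 at 1.20 ± 0.67, and its call was lost in both. Each of these fits left 1 mouse in a condition. In the first, immunized mouse 2 stood alone, and its MSM-like library was at 0 CPM for Cd300lf. Itgav kept its call in 6 of 17 alternatives. Mfge8 (-0.92 ± 0.38, adjusted p = 0.135), Havcr1 (-1.28 ± 0.67, 0.263) and Timd4 (-0.78 ± 0.52, 0.434) did not pass (edgeR). Havcr1 was called with the mouse as a replicate block (-1.79 ± 0.55, adjusted p = 0.0266, edgeR), with HTODemux and with the highest marker share, and Mfge8 with DESeq2 (-1.03 ± 0.31, adjusted p = 0.0262) and in capture 1 alone (-1.83 ± 0.42, 0.0105). Timd4 was called with the highest marker share (-1.53 ± 0.35, adjusted p = 0.00317, edgeR). Without immunized mouse 1, which left 1 immunized mouse, the means were -1.75 ± 0.57, -3.22 ± 0.75 and -2.76 ± 0.64 for Mfge8, Havcr1 and Timd4. Several libraries of the mouse that was left held 0 UMIs of the gene. These were Cd209a DC-like, cDC1-like, αβ T cell-like and NK cell-like cells for Havcr1. For Timd4 they were migratory DC-like and NK cell-like cells, and for Mfge8 MSM-like cells. For Stab1, Itgb3, Cd93 and Itgb5 a type without UMIs in a condition left no estimate of the mean. Havcr1 also lacked UMIs in cDC1-like cells of both immunized mice. Its means of -1.28 ± 0.67 and, with the block, -1.79 ± 0.55 were still fitted. The cDC1-like part of each is not a measured fold, so the size of these means is uncertain.

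**Figure D3:**
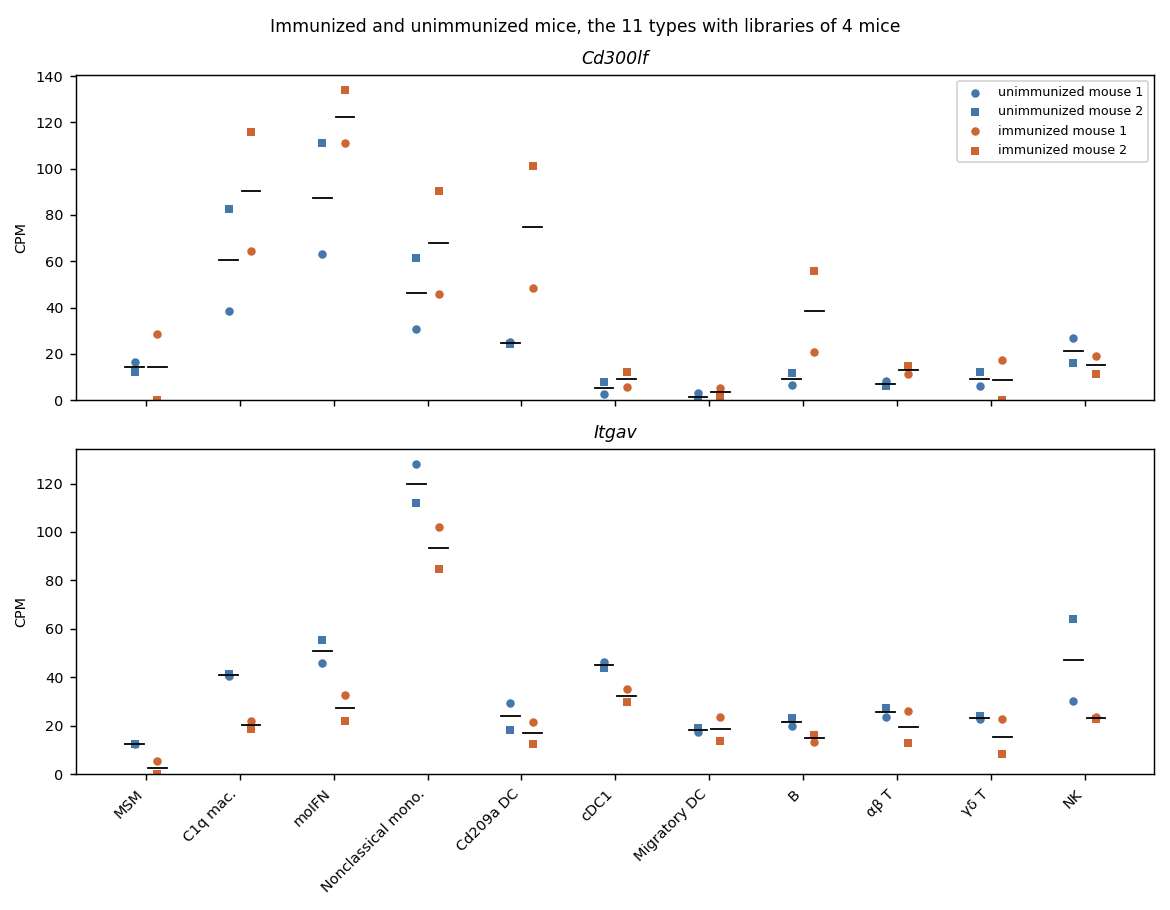
CPM of Cd300lf and Itgav in the 11 types with libraries of all 4 mice, with 1 point per mouse (blue, unimmunized; orange, immunized) and a bar at the mean of 2 mice. In Cd209a DC-like cells, Cd300lf was at 24.9 CPM on average in unimmunized and 74.5 CPM in immunized mice. Itgav did not overlap between conditions in 8 of the 11 types, lower in the immunized mice in each, as 0.486% of all genes did in 8 or more. Some of these rest on few UMIs, as in MSM-like cells with 9 and 1 against 3 and 0.

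Cd300lf was at 25.3 and 24.4 CPM in Cd209a DC-like cells of the unimmunized mice and from 48.3 CPM up in those of the immunized mice (mean 74.5 CPM, n = 2), without overlap. In C1q macrophage-like cells it was at 38.4 and 82.7 against 64.5 and 116 CPM, with overlap. Over the 11 types, the conditions did not overlap in 4 for Cd300lf, all higher after immunization, and 12.4% of all genes were higher in this way in 4 or more types. For Itgav they did not overlap in 8, all lower, and 0.486% of all genes were lower in 8 or more. Some of these 8 rest on few Itgav UMIs. MSM-like cells had 9 and 1 against 3 and 0, and γδ T cell-like cells 72 and 8 against 13 and 1. The types share the same 4 mice, and over all pairs of gene and type 15.7% were higher and 20.1% lower without overlap. In nonclassical monocyte-like cells, where Itgav was highest, the values were 128 and 112 against 102 and 84.6 CPM.
Within single types, 0 of 99 pairs of member and type were called with edgeR, and 13 had an unadjusted p under 0.05. DESeq2 called 0. Over all genes, 0.147% of pairs were called and 7.12% had an unadjusted p under 0.05. Timd4 in MSM-like cells differed by -0.39 ± 0.48 and Mfge8 in migratory DC-like cells by 0.03 ± 0.34. Neither gene showed a change beyond the error in the type where it was highest. Itgb3 in γδ T cell-like cells, its highest type, was at 82.9 and 75.0 against 54.0 and 32.7 CPM. It was also lower without overlap in αβ T cell-like cells. Over the 11 types, Itgb3 was lower in 8, in 4 of them without overlap, and higher in 3. Over all pairs of gene and type, 20.1% were lower without overlap. Of these 4 types, C1q macrophage-like cells had only 2 and 1 against 0 and 3 Itgb3 UMIs. Nonclassical monocyte-like cells had 8 and 2 against 3 and 3. The unadjusted p of Itgb3 was under 0.05 in 4 types (edgeR), and none was called. The lowest p was that of Mfge8 in Cd209a DC-like cells, at 20.3 and 6.10 against 3.42 and 1.79 CPM (log2 -2.58 ± 0.65, adjusted p = 0.0533, edgeR). The UMIs behind these Mfge8 values were 24 and 1 against 8 and 3.
With the mouse as a replicate block, 3 pairs were called: Mfge8 (-2.66 ± 0.58) and Cd300lf (1.40 ± 0.34) in Cd209a DC-like cells and Timd4 (-2.57 ± 0.45) in C1q macrophage-like cells. Over all genes the block took the count from 176 to 660. Each mouse was in 1 condition only, so the block does not pair the conditions within an animal, here or for Havcr1 over types. Without immunized mouse 1, 8 pairs of member and type were called, and 1553 pairs over all genes. No effect of immunization on a member differed between a type and the mean of the others, where 0.00334% of all pairs of gene and type were called, 4 in all and 43 with the block.

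The whole sort, gated or not, combines levels with the numbers of cells, and fewer cells of a type and less RNA per cell cannot be told apart in such sums. Timd4 was at 87.7 and 39.6 CPM in the unimmunized and at 24.8 and 3.92 CPM in the immunized mice. Itgb3 was at 26.9 and 16 against 2.90 and 0.774 CPM, and Mfge8 at 56.1 and 23.0 against 14.7 and 4.92 CPM. Cd300lf went the other way, at 24.6 and 40.1 against 61.6 and 107 CPM. The conditions did not overlap for 8 of the 9 genes, as for 69.3% of all genes, and did for Cd93. With 2 mice against 2, the two-sided exact permutation test cannot go below p = 0.333, which it gave for those 8.
The shares of cells moved as well. MSM-like cells made up 10.6 and 5.21% of the unimmunized and 3.65 and 0.318% of the immunized sort, and C1q macrophage-like cells 1.98 and 5.03% against 9.82 and 25.3%. Their part in the summed levels was not tested.

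**Figure D4:**
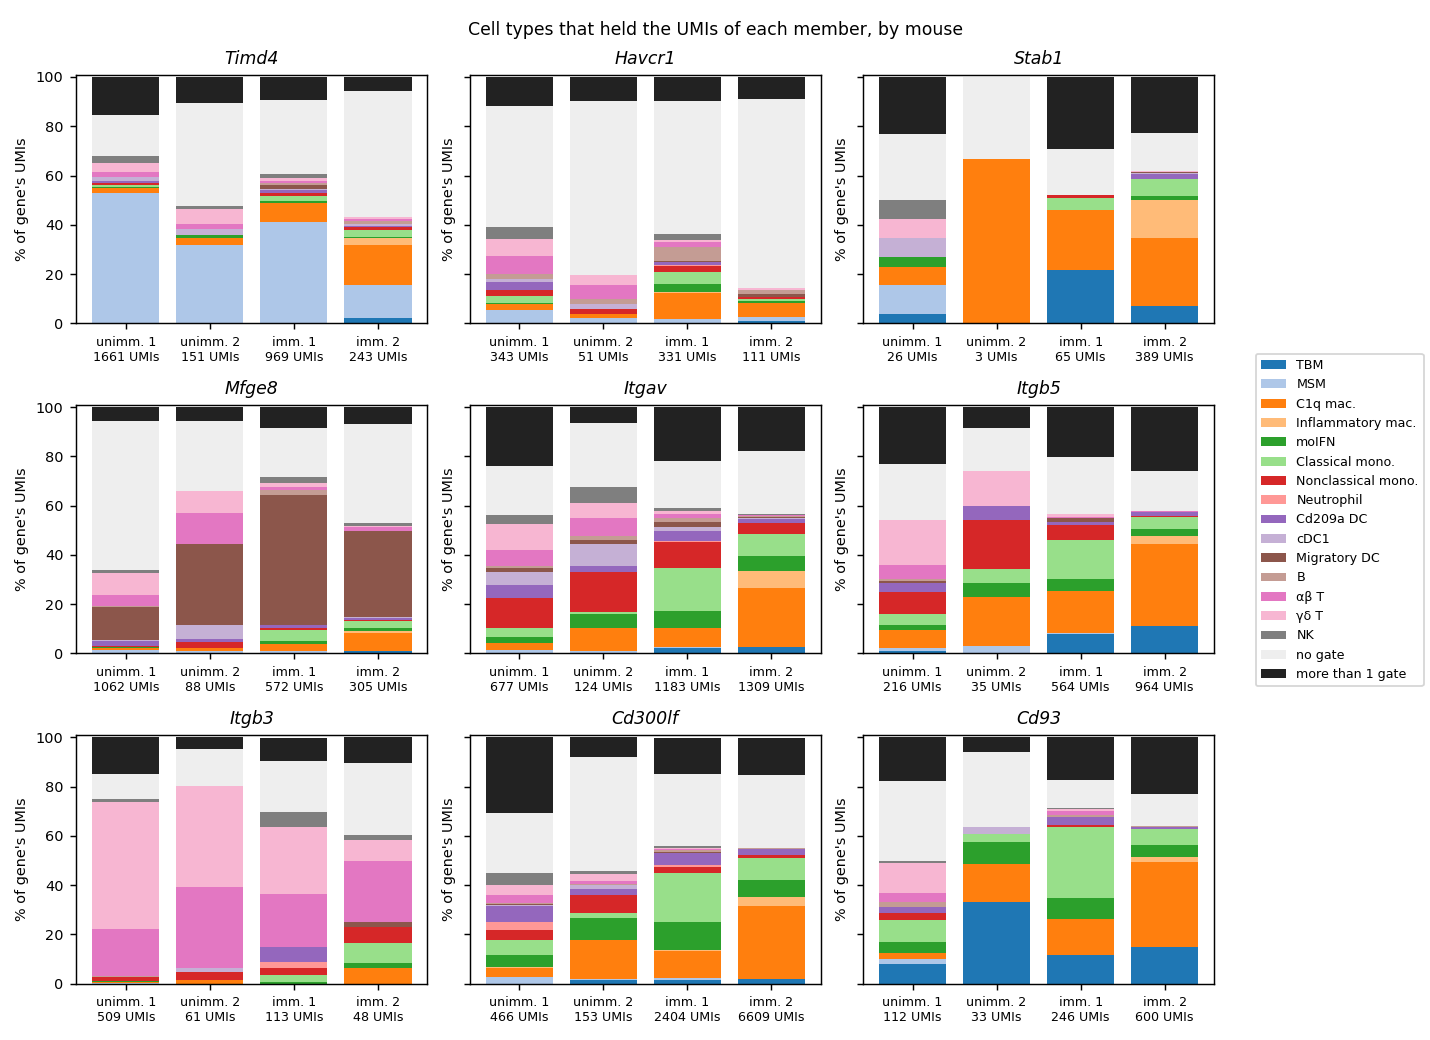
Percent of the UMIs of each gene held by each gated type, by cells of no gate (light grey) and by cells of more than 1 gate (black), with 1 bar per mouse and its number of UMIs below. MSM-like cells held 52.7% of Timd4 UMIs in unimmunized mouse 1 and 13.6% in immunized mouse 2.

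MSM-like cells held 52.7, 31.8, 41.2 and 13.6% of the Timd4 UMIs of the 4 mice, and cells of no gate 16.8, 41.7, 30.0 and 51.0%. Migratory DC-like cells held 13.5, 33.0, 52.8 and 34.8% of those of Mfge8. For Itgb3, γδ T cell-like cells held 51.7, 41.0, 27.4 and 8.33%.

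The genes whose levels were most like those of a member were listed by Pearson r of log2 CPM over 52 libraries, which share mice and differ in depth. Cd93 was most like F13a1 (0.806), Siglec1, the gene of CD169 (0.748), and C3ar1 (0.734). Stab1 was most like Mertk (0.746), Mfge8 like Socs2 (0.847), Cd300lf like the formyl peptide receptor gene Fpr2 (0.866), Itgb5 like Lilra5 (0.785) and Itgb3 like Acpp (0.840). Timd4 was most like Gm10790 (0.806), Havcr1 like 1700003F12Rik (0.730) and Itgav like Cic (0.774). F13a1, C3ar1 and Socs2 were gate markers. Among the members, r was highest for Itgb5 with Cd93 (0.61) and for Timd4 with Havcr1 (0.55).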

How the data were processed

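Per the labels, the study made RNA, antibody-tag and hashtag libraries from 2 captures of 1 pool of 4 mice. The deposited gene, antibody and hashtag matrices hold whole-number UMI counts, not normalized, which the authors made with Cell Ranger 4.0.0 (submitters' processing notes) on mm10. Cells were assigned to a mouse where 1 hashtag held at least 80% of 10 or more hashtag counts, and kept with at most 25% mitochondrial UMIs. A cell entered a type when it held UMIs of a minimum number of that type's markers (2 to 5 by type) and passed no other gate. Gates nested by design were ignored for this, as C1q macrophage-like for TBM-like cells. No clustering was done, and cells with more than 1 hashtag or gate were left out as doublets.

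Counts were summed per mouse and type (5 or more cells, 52 libraries) and tested with edgeR 4.0.16 (TMM, filterByExpr, quasi-likelihood) in R 4.3.3. Alternatives used DESeq2 1.42.0, HTODemux of Seurat 5.3.0, other filters, gates and captures. The mouse pairs types within an animal, as its hashtag shows, and was tried as a block. It does not pair the conditions, as each mouse was in 1 condition only. In simulated data, log2 changes of 2 were recovered in 71% of genes (TBM-like against classical monocyte-like) and 96.6% (immunization over types). For log2 changes of 1 these were 23.4% and 71.1%. All members were named; of other lists, the 2 called genes with the lowest p per direction; and the 3 genes most like each member. The members and lists were chosen with earlier results of these data known. Immunization was not tested in TBM-like, inflammatory macrophage-like, classical monocyte-like or neutrophil-like cells, and its effect in a type was set against the mean of the other types in place of classical monocyte-like cells.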

Additional observations from a re-analysis of the deposited data

How the results depend on the processing

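Of the alternatives that kept all mice, 414 values kept their direction and side of the threshold, 76 lost their call, 52 moved and 1 reversed. Cell type comparisons gave 11453 pairs of gene and comparison and 25 of member and comparison. DESeq2 gave 7309 and 15, and the gate by highest marker share 5238 and 6. Capture 1 alone gave 6820 pairs of gene and comparison, and capture 2 alone 6449, with 15 of member and comparison. Without 1 mouse the counts were 6497 to 10246 and 15 to 24. Stab1 in TBM-like against classical monocyte-like cells was at -5.50 ± 9.44 with the highest marker share. Without immunized replicate 1, Mfge8 in MSM-like against classical monocyte-like cells turned to -0.69 (2.20 without unimmunized replicate 2) and Cd300lf over types to -0.34 (1.20 without unimmunized replicate 1). The cause was not tested.

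Immunization over types called 897 genes and 2 members: DESeq2 637 and 3, HTODemux 578 and 2 (Cd300lf and Havcr1), at least 20 cells per library 110 and 0, the highest marker share 1560 and 3, capture 1 231 and 1 (Mfge8, with Cd300lf and Itgav lost at adjusted p = 0.0772 and 0.116), capture 2 209 and 0, no filter 1 member, a hashtag share of 90% 1 member, 1 more marker per gate 0 members, and without 1 mouse 434 to 940 genes and 0 to 4 members. Within types, 176 pairs of gene and type and 0 of member and type were called. With the mouse as replicate block the paired counts were 660 and 3. They were 112 pairs with DESeq2, 1089 and 6 without the filter, 50 with at least 20 cells, 695 and 4 with the highest marker share, 388 and 1 with only the types compared, 78 and 38 pairs with capture 1 and 2, 1 member with relative log expression size factors, 2 with 1 more marker per gate, and 11 to 1553 and 0 to 8 without 1 mouse. Effect differences between types numbered 4 for genes and 0 for members: 22 with DESeq2, 156 and 1 without the filter, 43 with the replicate block, 2 with the 90% hashtag share, 7 with 1 more marker, 13 with the highest marker share, 0 with either capture, and 6 to 133 without 1 mouse. The block changed no member's call beyond those given above.

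In the whole sort, leaving out 1 mouse gave immunized minus unimmunized differences of -73.3 to -25.2 CPM for Timd4, -13.9 to -7.25 for Havcr1, 0.587 to 5.20 for Stab1, -46.3 to -13.3 for Mfge8, -13.0 to -3.79 for Itgav, 3.60 to 5.84 for Itgb5, -25.0 to -14.1 for Itgb3, 29.3 to 74.3 for Cd300lf and -0.974 to 2.40 for Cd93, which was 4.19 in capture 1 and -2.40 in capture 2. Mean shares of cells with a UMI, thinned and unthinned, were 49.8 and 72.3% for Timd4 and 2.69 and 6.49% for Havcr1 in MSM-like cells, 2.53 and 18.8% for Stab1, 7.08 and 52.1% for Itgb5 and 5.55 and 36.5% for Cd93 in TBM-like cells, 12.5 and 44.6% for Mfge8 in migratory DC-like cells, 11.6 and 54.8% for Itgav in nonclassical monocyte-like cells, 4.46 and 34.5% for Itgb3 in γδ T cell-like cells and 43.5 and 68.5% for Cd300lf in neutrophil-like cells.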

Other observations

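The unimmunized mice had 3 and 4 TBM-like cells, too few for a library, and Cd93 was counted in 4 of these 7. Unimmunized mouse 1 held 9 Cd93 UMIs, all in 1 cell of 11160 UMIs, and unimmunized mouse 2 held 6, 3 and 2 in 3 cells of 6950, 2793 and 20041 UMIs. Summed, this is 263 and 264 CPM. These cells entered no test.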
